A study of Mus musculus with 7 samples.

Results

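Viral restriction factors are host proteins that block a step of viral growth, and 10 of their genes were examined in splenic monocytes of 2 mice. Members were found as probe sets of the deposited table whose single gene symbol was Samhd1, Adar, Apobec3, Bst2, Rsad2, Mx1, Ifitm3, Trex1, Cmpk2 or Helz2. This gave 1 probe set for each of 9 genes, out of 22180 genes with a symbol of their own. The only probe set of Trex1, a DNA exonuclease, also carried a second symbol, so no level is given for it. All 9 genes reached a log2 level of 5 on at least 1 array and were among the 11127 genes tested. For 5 of them (Bst2, Rsad2, Mx1, Ifitm3 and Helz2) both unstimulated arrays were under that level, so they passed through the stimulated arrays.

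RNA was hybridised to 7 Affymetrix Mouse Gene 2.0 ST arrays, a whole-transcript microarray. The tested groups were HL7G, a monoclonal antiphospholipid antibody at 400 ng/ml with 1 array from each of 2 mice, R848 at 2 µg/ml, CpGB at 2.5 µM and Poly I/C at 1 µg/ml, each of these 3 with 1 array from mouse 1, all after 3 h. Unstimulated cells of both mice were the control (n = 2). All cells were of wild-type EPCR genotype, EPCR being a receptor for protein C. The sources used here do not give the strain, age or sex of the mice, nor how the monocytes were selected. R848 is an agonist of the endosomal receptor TLR7, CpGB is a DNA oligonucleotide sensed by TLR9, and Poly I/C stands in for double-stranded RNA and is sensed by TLR3. Since the labels give 1 array per mouse and condition, errors measure the spread between animals, and R848, CpGB and Poly I/C have no spread of their own.

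Most restriction factors are interferon-stimulated genes. Type I interferon acts on its receptor, the kinases JAK1 and TYK2 phosphorylate STAT2, and STAT2 acts with IRF9 at the interferon-stimulated response element (ISRE) in promoters. The proteins then act at different steps. IFITM3 hinders fusion of viral and endosomal membranes, Mx proteins trap incoming viral components, SAMHD1 and viperin act on nucleotide pools, APOBEC3 and ADAR edit viral nucleic acids, and tetherin (BST2) holds budding virions at the cell surface.

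The promoters were read first, because interferon acts through the ISRE and most restriction factors are interferon-stimulated genes. RefSeq windows of GRCm38.p6, from 250 bases before to 50 after each annotated start, were listed for 8 of the 9 genes in 11 windows, and Mx1 had no entry. The ISRE core was searched on both strands as GAAANNGAA followed by 1 more A, a motif chosen with values of these data known. It was found in the windows of 4 of the 8 genes (Apobec3, Bst2, Ifitm3 and Rsad2). It occurred in 3.44% of all 32851 windows and in 3.99% of 27025 genes. GAAANNGAA alone, which lies within it, added Adar, and 9.76% of genes hold it. Another motif searched, TTCNNNGAA, was found for 4 of the 8 (Adar, Bst2, Ifitm3 and Samhd1), and 9.55% of genes hold it. A match describes these letters only, and windows without one (Adar, Cmpk2, Helz2 and Samhd1 for the ISRE core) say nothing of elements elsewhere. Sites of the ISRE core and of its shorter form are printed in the direction of transcription, with the matched letters in capitals.
Rsad2, chr12:26456553-26456582, minus strand, first matched base 120 before the start: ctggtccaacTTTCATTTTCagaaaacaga
Bst2, chr8:71537583-71537612, minus strand, 130 before the start: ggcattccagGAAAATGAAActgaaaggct
Apobec3, chr15:79892258-79892287, plus strand, 140 before the start: catcagttagTTTCCCTTTCtctttgcgat
Ifitm3, chr7:141010706-141010735, minus strand, at base 20 of the transcript: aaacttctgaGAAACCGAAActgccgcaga
Adar, chr3:89730741-89730767, plus strand, shorter form at base 34 of the transcript: tcaaggaaacGAAAGTGAActctgggg

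In Bst2 a second match overlapped the first, beginning 124 bases before the start, and Ifitm3 had another at base 3 of its transcript. Adar had another match to the shorter form, beginning 249 bases before the start. The 150 bases before the start of Rsad2 (chr12:26456453-26456602, minus strand) and of Bst2 (chr8:71537473-71537622, minus strand) show how the matches sit in their promoters. Capitals again mark the ISRE core on either strand, and in Bst2 both overlapping matches are in capitals.
Rsad2: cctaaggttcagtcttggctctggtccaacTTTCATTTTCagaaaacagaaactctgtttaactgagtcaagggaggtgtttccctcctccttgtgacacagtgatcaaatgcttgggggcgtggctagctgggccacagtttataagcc
Bst2: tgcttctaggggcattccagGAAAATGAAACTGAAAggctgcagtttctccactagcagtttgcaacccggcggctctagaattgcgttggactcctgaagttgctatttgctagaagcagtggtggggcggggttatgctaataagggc

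The arrays themselves set limits that touch every value below. Of 10 listed monocyte markers 6 reached the level for testing. Ly6c2 stayed at or under 4.38 and Ccr2 at or under 4.09 on every array. Lyz2 alone of the 6 tested was called higher with HL7G, and 0 were called lower. Lyz2 read 6.20 and 7.02 in HL7G cells and 4.53 and 5.11 in unstimulated cells. Cx3cr1 read 5.64 and 5.26 in HL7G cells and 6.05 and 6.50 in unstimulated cells. The median of the 10 monocyte markers was 5.36 and 5.19 in HL7G cells and 4.88 and 4.99 in unstimulated cells. Several abundant transcripts read low in unstimulated cells. B2m, which encodes beta-2 microglobulin, read 10.3 and 9.91 in HL7G cells of mouse 1 and mouse 2, 9.23 to 9.71 with the other stimuli, and 5.74 and 7.90 in unstimulated cells. Of 7 abundant transcripts tested, 5 were called higher and 1 lower with HL7G by the limma test used below, which called 16.3% of all genes higher and 1.89% lower. B cell markers (6 of 7 tested) and T cell markers (4 of 6 tested) were called higher with HL7G too, while none of 5 tested plasmacytoid dendritic cell markers was. The median level of the B cell list was 6.45 and 6.55 in HL7G cells and 4.997 and 5.19 in unstimulated cells. The median of the T cell list was 6.63 and 6.38 in HL7G cells and 4.99 and 5.22 in unstimulated cells. The part of these shifts in the restriction factor results was not tested. In RNA of a whole sample, fewer cells of a type and less RNA per cell cannot be told apart.

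Every restriction factor measured was higher with HL7G than without stimulation. All 9 lay higher on both HL7G arrays than on both unstimulated arrays, which held for 40.5% of the genes tested. All 5 stimulated arrays were above both unstimulated arrays for the 9 genes, as for 27.4% of all genes, and the mouse 1 HL7G array was the highest of 7 for each, as for 30.5%. By limma with Benjamini-Hochberg adjustment over 11127 genes, 6 of 9 rose (Samhd1, Helz2, Mx1, Apobec3, Rsad2 and Adar), where 16.3% of all genes did, and none of the 9 fell, where 1.89% of all genes did. Of these 6, Rsad2, Mx1 and Helz2 had passed the filter through the stimulated arrays. The members were chosen with earlier results of these data known, so the shares give scale and are no test of the set. Their median log2 difference was 2.08, against 0.06 over all genes tested. For the 7 abundant transcripts tested it was 2.55. Genes with a higher average level shifted upward more. Over the 1337 genes whose levels averaged 6 or more, the median was 0.86 and 31.2% were called higher. That average includes the 5 stimulated arrays, so a rise itself helps a gene into this range. The 6 members in that range had a median of 2.215. With all 11127 genes tested, Cmpk2, Bst2 and Ifitm3 did not pass the test. With the mouse as a block, Cmpk2 (adjusted p = 0.0431) and Bst2 (adjusted p = 0.0430) passed it as well, giving 8 of 9, where 16.6% of all genes passed. Without the mouse 1 unstimulated array the median of the 9 was 2.03, but none of them passed by limma and 2 genes in all did. The adjusted p of the 6 called genes was then between 0.0878 and 0.155, in a fit with 1 residual degree of freedom.

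**Figure D1:**
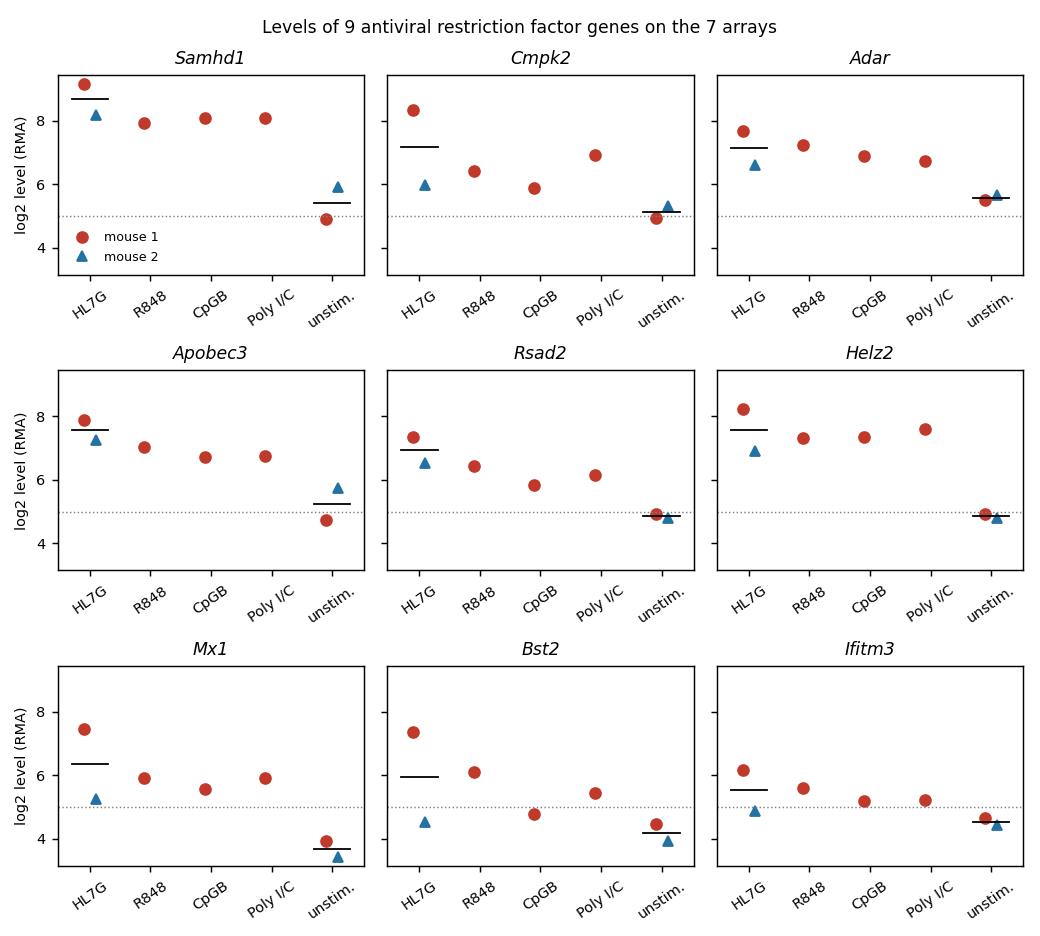
RMA log2 level of each gene (vertical axis) on each array, by treatment, with circles for mouse 1, triangles for mouse 2, a line at the mean of groups with 2 arrays and a dotted line at the level of 5 needed for testing. For each of the 9 genes the mouse 1 HL7G array was the highest of 7, and the 2 unstimulated arrays were the lowest.

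Nucleotide pools are the point of attack of 2 of these enzymes. SAMHD1 hydrolyses deoxynucleotides and so starves reverse transcription. Samhd1 read 9.17 and 8.20 in HL7G cells of mouse 1 and mouse 2, 7.93 with R848, 8.10 with CpGB, 8.08 with Poly I/C, and 4.92 and 5.92 in unstimulated cells. All 5 stimulated arrays were far above both unstimulated arrays, and the agonist arrays lay within 0.17 of each other. It rose 9.61-fold with HL7G (log2 difference 3.27 ± 0.43 SE, n = 2 against 2, adjusted p = 0.0120), the 26th highest difference of 11127 genes. Its unstimulated level was 1.00 lower in mouse 1 than in mouse 2, in the same direction as B2m. The unstimulated array of mouse 1 was the lower of the pair for 4 of the 9 genes (Samhd1, Adar, Apobec3 and Cmpk2), as for 50.1% of all genes. Cyclic loess over the genes tested left 1.91 of the difference, still called (adjusted p = 0.00860).

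CMPK2 is a mitochondrial nucleoside monophosphate kinase that feeds nucleotide synthesis. Cmpk2 read 8.35 and 5.98 in HL7G cells, 6.44 with R848, 5.88 with CpGB, 6.91 with Poly I/C, and 4.94 and 5.33 in unstimulated cells. The HL7G arrays of the 2 mice differed by 2.37, and that of mouse 2 fell among the agonist arrays. Its difference of 2.03 ± 0.68 was not called (adjusted p = 0.0799), and leaving out the HL7G array of mouse 1 gave 0.84, that of mouse 2 3.21. A variance trend brought it under the threshold (adjusted p = 0.0453).

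The editing enzymes were called. ADAR turns adenosine into inosine in double-stranded RNA and keeps the cell's own RNA from being sensed. Adar read 7.68 and 6.62 in HL7G cells, 7.24 with R848, 6.90 with CpGB, 6.74 with Poly I/C, and 5.50 and 5.66 in unstimulated cells. The unstimulated arrays agreed within 0.16, and the lowest stimulated array, HL7G in mouse 2, lay 0.96 above that of the same mouse. Adar rose by 1.57 ± 0.35 (adjusted p = 0.0269), the smallest rise among the 6, and cyclic loess ended the call (0.70, adjusted p = 0.0960). With the unstimulated array of mouse 2 left out it was not called either (1.65, adjusted p = 0.0845).

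Mouse APOBEC3 deaminates cytosines in retroviral DNA and limits murine retroviruses. Apobec3 read 7.89 and 7.27 in HL7G cells, 7.03 with R848, 6.72 with CpGB, 6.74 with Poly I/C, and 4.74 and 5.73 in unstimulated cells. Both HL7G arrays stood above all agonist arrays. It rose 5.08-fold (2.35 ± 0.38, adjusted p = 0.0137). Like Samhd1 it was lower in the unstimulated cells of mouse 1 than of mouse 2, by 1.00, and it was still called after cyclic loess (adjusted p = 0.0174).

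Rsad2 encodes viperin, which makes a chain-terminating nucleotide. Rsad2 read 7.35 and 6.53 in HL7G cells, 6.45 with R848, 5.83 with CpGB, 6.14 with Poly I/C, and 4.93 and 4.80 in unstimulated cells. The unstimulated arrays lay close together, below all others. Rsad2 rose 4.24-fold (2.08 ± 0.30, adjusted p = 0.0122), with the smallest SE of the 9 genes, and by 2.43 in mouse 1 and 1.74 in mouse 2. Rsad2 lies next to Cmpk2 on chromosome 12 with 0 annotated genes between them in the RefSeq table. In the HL7G cells of mouse 2, Rsad2 was 1.74 above its unstimulated level and Cmpk2 0.64. In mouse 1 the order was reversed, with Rsad2 2.43 above its unstimulated level and Cmpk2 3.41.

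HELZ2 is a helicase that coactivates nuclear receptors and is induced by interferon. Helz2 read 8.24 and 6.92 in HL7G cells, 7.33 with R848, 7.34 with CpGB, 7.60 with Poly I/C, and 4.94 and 4.81 in unstimulated cells. The agonist arrays lay between those of the HL7G-treated mice. It rose 6.52-fold (2.70 ± 0.41, adjusted p = 0.0125), and with Poly I/C its difference of 2.72 was the 29th highest of all genes tested.

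Mx1 encodes a GTPase that blocks influenza-like viruses in the nucleus. RefSeq lists Mx1 of the C57BL/6J genome as a transcribed pseudogene, so a transcript level need not mean a working protein in that strain. Mx1 read 7.46 and 5.27 in HL7G cells, 5.91 with R848, 5.58 with CpGB, 5.92 with Poly I/C, and 3.94 and 3.44 in unstimulated cells. All stimulated arrays were well above the unstimulated pair. It rose 6.39-fold (2.68 ± 0.64, adjusted p = 0.0314), although the HL7G arrays were 2.19 apart. With the unstimulated array of mouse 2 left out it was no longer called (2.42, adjusted p = 0.118). Mx2, its paralogue, rose by 2.72 ± 0.49 (adjusted p = 0.0166).

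The membrane proteins Bst2 and Ifitm3 varied most against their size of change. Bst2, which encodes tetherin and is also a surface marker of mouse plasmacytoid dendritic cells, read 7.35 and 4.54 in HL7G cells, 6.12 with R848, 4.80 with CpGB, 5.43 with Poly I/C, and 4.47 and 3.92 in unstimulated cells. The mouse 2 HL7G array was 0.07 above the mouse 1 unstimulated array, so the groups nearly met. Its difference of 1.75 ± 0.80 was not called (adjusted p = 0.162), and leaving out the HL7G array of mouse 1 gave 0.35, that of mouse 2 3.16. Of 5 tested markers of plasmacytoid dendritic cells none was called with HL7G. Ly6d (1.00), Tcf4 (0.67) and Pacsin1 (0.40) had differences above 0, Cox6a2 (-0.36) and Siglech (-0.57) below 0, and their part in the Bst2 values was not tested.

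IFITM3 sits in endosomal membranes. Ifitm3 read 6.17 and 4.89 in HL7G cells, 5.61 with R848, 5.19 with CpGB, 5.24 with Poly I/C, and 4.66 and 4.43 in unstimulated cells. It was above 5 on 4 of 7 arrays and had the smallest difference of the 9 genes (0.99 ± 0.41, adjusted p = 0.131). Its difference was 0.35 without the mouse 1 HL7G array. The relatives Ifitm1, Ifitm2 and Ifitm6 stayed under 4.47 on all arrays and were not tested, and Ifitm5 (-0.40) and Ifitm10 (-0.19) did not pass the test.

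The mice differed in the size of the HL7G difference. It was larger in mouse 1 than in mouse 2 for all 9 genes, against 51.1% of the genes tested. The median over the 9 was 3.16 in mouse 1 and 1.54 in mouse 2, while over all genes it was 0.02 and 0.12. Cmpk2 had the widest gap, at 3.41 in mouse 1 and 0.64 in mouse 2, followed by Bst2 at 2.88 and 0.62. Rsad2 had the narrowest. A difference of at least 2-fold in both mice was seen for 5 genes (Samhd1, Apobec3, Rsad2, Mx1 and Helz2), against 8.60% of all genes. With 1 array per mouse and condition, the difference between mice was not tested.

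**Figure D2:**
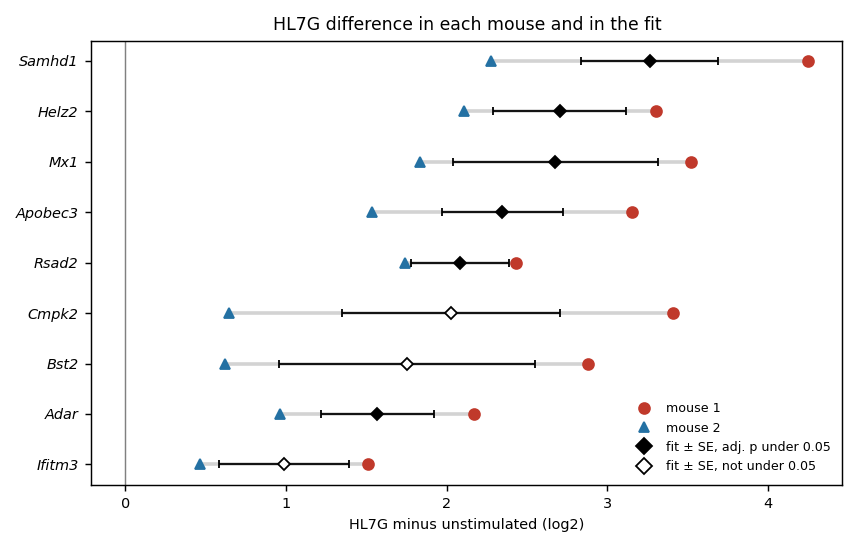
HL7G minus unstimulated log2 difference (horizontal axis) of each gene in mouse 1 (circles), in mouse 2 (triangles) and in the limma fit (diamonds with SE, filled at an adjusted p under 0.05). Mouse 1 lies right of mouse 2 for all 9 genes, from Rsad2 (2.43 and 1.74) to Cmpk2 (3.41 and 0.64).

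The endosomal receptor agonists gave differences of similar direction. All 9 genes were higher on each agonist array than on both unstimulated arrays, against 48.3% of all genes with R848, 42.8% with CpGB and 41.0% with Poly I/C. These comparisons share the unstimulated arrays with each other and with HL7G. The median of the 9 was 1.80 with R848, 1.32 with CpGB and 1.51 with Poly I/C, against 0.09, 0.03 and 0.02 over all genes. The 7 abundant transcripts tested had medians of 2.32, 1.85 and 2.19 in the same order. Over the 1337 genes whose levels averaged 6 or more, the medians were 0.74, 0.47 and 0.47. The 6 members in that range had medians of 1.73, 1.40 and 1.64. Limma called 0 of the 9 with any agonist, and 0 of all genes (0%). At an unadjusted p under 0.05 it had 6 of 9 with each agonist. Of all 11127 genes tested, 2551 were under that value with R848, 1370 with CpGB and 1054 with Poly I/C. With the mouse as a block none was called either, and estimates of some genes were smaller: Bst2 had 1.08 with R848, -0.24 with CpGB and 0.40 with Poly I/C, and Cmpk2 had 0.81, 0.25 and 1.28. Ifitm3 then had 0.69 with R848, 0.27 with CpGB and 0.32 with Poly I/C, and Mx1 had 1.21 with CpGB. Each agonist's single array was assumed to vary like the replicated groups. When either HL7G array was left out, so that the spread came from the unstimulated pair alone, 9 of 9 passed with R848 and 4 of 9 with CpGB and with Poly I/C, where 13.9%, 4.75% and 1.78% of all genes did.

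**Figure D3:**
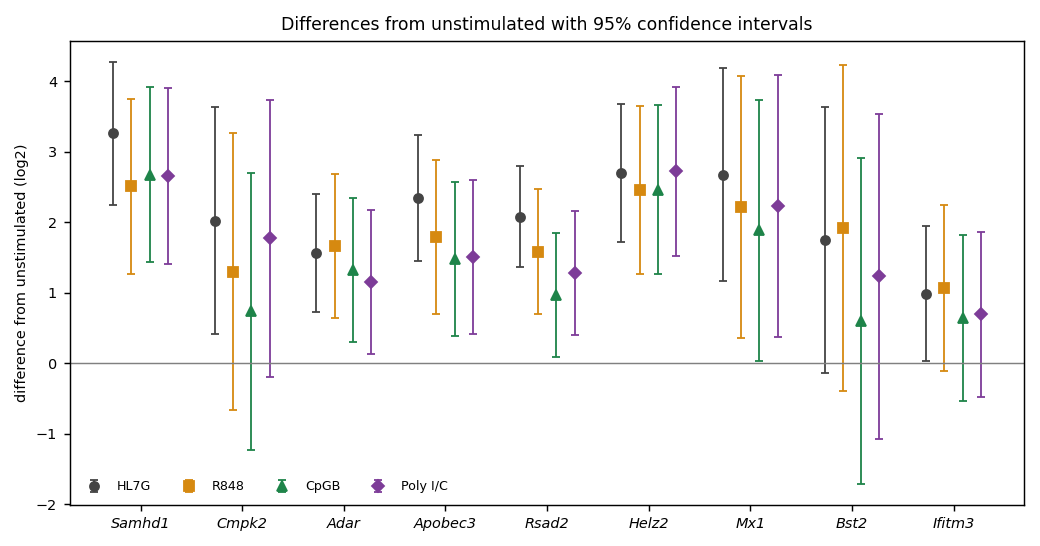
Log2 difference from unstimulated (vertical axis) of each gene with HL7G, R848, CpGB and Poly I/C, with 95% confidence intervals from the limma fit. The intervals of the 4 stimuli overlap for every gene, and the CpGB estimates run from 0.60 for Bst2 to 2.68 for Samhd1.

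The order of the agonists varied between genes. R848 gave the highest agonist level for 5 of 9 (Adar, Apobec3, Bst2, Rsad2 and Ifitm3), as for 44.1% of all genes, and CpGB the lowest for 6 of 9, as for 32.8%. Helz2 had close estimates with the 3 agonists (2.46 with R848, 2.47 with CpGB and 2.72 with Poly I/C), as did Samhd1 (2.51, 2.68 and 2.66). Bst2 differed most, at 1.92 with R848, 0.60 with CpGB and 1.24 with Poly I/C. Its R848 minus CpGB difference of 1.32 was the 13th highest of all genes but had a 95% confidence interval from -1.34 to 3.99. Cmpk2 was highest with Poly I/C (1.78, against 1.30 with R848 and 0.74 with CpGB). No gene passed for R848 against CpGB (0%, with 330 genes and 0 of the 9 at an unadjusted p under 0.05). None passed for R848 and CpGB against Poly I/C either (0%, with 187 genes and 0 of the 9). In that last comparison the 9 differences lay between -0.76 for Cmpk2 and 0.34 for Adar. Cmpk2's 95% confidence interval there ran from -2.72 to 1.21.

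HL7G was also set against the mean of the 3 agonists. All 9 genes lay above 0, by a median of 0.56 against 0.05 over all genes, and limma called 0 of 9 and 0% of all genes (1203 genes at an unadjusted p under 0.05, among them Rsad2 alone of the 9). Rsad2 had 0.81 ± 0.28 (adjusted p = 0.405), Cmpk2 0.75 and Apobec3 0.75. With the mouse as a block the order of the genes changed, with Bst2 at 1.34, Cmpk2 at 1.25, Mx1 at 1.24, Rsad2 at 1.04, Apobec3 at 0.66, Ifitm3 at 0.56, Helz2 at 0.52 and Adar at 0.41, and still none was called. The values depended on the mouse 1 HL7G array, which was above the 3 agonist arrays for all 9 genes (39.4% of all genes) and above them by a median of 0.91 for R848, 1.17 for CpGB and 1.15 for Poly I/C. All agonist arrays came from mouse 1 too. The mouse 2 HL7G array was above all agonist arrays for Samhd1, Apobec3 and Rsad2 (31.0% of all genes), and below all of them for Adar, Bst2, Mx1, Ifitm3 and Helz2 (22.9%). Both HL7G arrays were thus above all agonist arrays for 3 of 9, as for 19.2% of all genes. Without the mouse 1 HL7G array, Adar, Bst2, Mx1, Ifitm3, Cmpk2 and Helz2 had differences below 0, between -0.34 and -0.90.

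Other genes of antiviral defence were read from lists. Of 24 other restriction factors 18 were tested, and 10 rose with HL7G and none fell, where 16.3% of all genes rose and 1.89% fell. The median of the 18 was 1.49, against 0.06 over all genes. The largest of these were Mx2, Pml (2.69 ± 0.41, a scaffold of nuclear bodies), Daxx (2.66 ± 0.50, a histone chaperone of those bodies) and Zc3hav1 (2.27 ± 0.31, the CpG-binding antiviral protein ZAP). Isg20, an RNA exonuclease, had 0.98 (adjusted p = 0.207), and it read 7.19 and 5.47 in HL7G cells against 5.21 and 5.48 in unstimulated cells. Of 9 tested genes of interferon signalling 5 rose and none fell (median 1.86), against the same shares of all genes, led by Stat2 (2.75 ± 0.43), Jak1 (2.23 ± 0.33), Irf9 (1.90 ± 0.21) and Irf1 (1.86 ± 0.24).

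Another pair of lists holds genes close to the enzymatic roles of Samhd1, Cmpk2, Adar and Apobec3. Of 10 tested genes of nucleotide supply, 2 rose, a share close to the 16.3% of all genes, Nt5c3 (1.63 ± 0.44, a pyrimidine nucleotidase) and Dck (0.76 ± 0.21, deoxycytidine kinase), and none fell, with a median of 0.06, equal to that of all genes. Of 6 tested genes of nucleic acid editing and inherited interferonopathy, 2 rose, the RNA sensor gene Ifih1 (2.91 ± 0.47) and the DNA sensing adaptor gene Sting1 (1.13 ± 0.24), and none fell (median 0.66), against 16.3% of all genes higher and 1.89% lower. Apobec1, another cytidine deaminase, had 1.23 ± 0.35 (adjusted p = 0.0521), and Adarb1, another adenosine deaminase, had -0.34. Rnaseh2a and Rnaseh2b, subunits of the nuclease that removes RNA from hybrids, had 0.09 and 0.19. No gene of these 4 lists was called with an agonist.

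For each of the 9 genes the tested gene of most similar shape was found as the one with the lowest root mean square difference between mean-centred log2 levels on the 7 arrays. Predicted loci, genes with clone names, small RNAs, olfactory and vomeronasal receptor genes, immune receptor segments and named pseudogenes were left out of this search. Rsad2 was nearest to Zc3hav1 (0.09), Ifitm3 to Khnyn (0.07), whose human product is a cofactor of ZAP, Mx1 to its paralogue Mx2 (0.20), Helz2 to the ISG15 protease gene Usp18 (0.17), Bst2 to the RNA sensor homologue Dhx58 (0.29) and Cmpk2 to Phf11b (0.22). Adar was nearest to the non-coding gene Zfas1 (0.07), Apobec3 to the splicing helicase gene Dhx15 (0.10) and Samhd1 to Hnrnpa2b1 (0.23), which encodes an RNA-binding protein. The nearest gene among the 9 was farther in each case, at 0.29 for Adar and Ifitm3, 0.31 for Rsad2 (with Adar), 0.34 for Mx1 and Helz2, 0.35 for Apobec3 (with Rsad2), 0.40 for Samhd1 (with Helz2) and 0.44 for Bst2 and Cmpk2. Among all genes tested, that nearest member ranked between 19th closest, for Mx1, and 709th, for Ifitm3. It was 508th for Adar. All points share the 7 arrays, and likeness here counts array-wide shifts as well as responses.

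**Figure D4:**
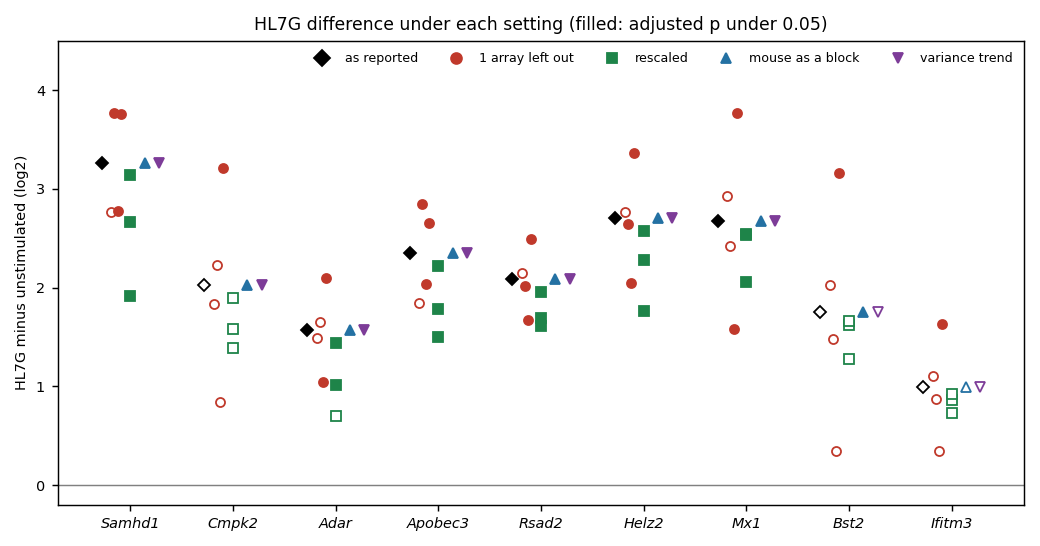
HL7G minus unstimulated log2 difference (vertical axis) of each gene as reported, with each of 4 arrays left out, after 3 kinds of rescaling, with the mouse as a block and with a variance trend, filled where the adjusted p was under 0.05. All estimates lie above 0, and Bst2 ran from 0.35 to 3.16 as arrays were left out, the widest range of the 9 genes.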

How the data were processed

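The authors deposited log2 expression values per probe set, 1 column per array. RMA, Affymetrix Expression Console and Transcriptome Analysis Console are named in the submitters' processing notes, with no versions. RMA corrects background, quantile-normalizes arrays and summarises probes. Array medians lay between 4.40 and 4.54, and the number of arrays limits the precision.

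Of 41345 probe sets, 23521 had 1 symbol in GEO's platform annotation, 1814 had several and 16010 were unnamed. Entrez identifiers matched the RefSeq table of GRCm38.p6 for 23328 and changed 0 symbols. A gene was tested if a probe set reached a log2 level of 5 on at least 1 array, and the brightest such probe set stood for it. Limma 3.58.1 (R 4.3.3) fitted all 7 arrays as 5 groups, with 2 residual and 4.94 prior degrees of freedom. Tests were 2-sided, adjusted by Benjamini-Hochberg and called under 0.05. The fit was tested on simulated data. The members, lists and motifs were chosen with earlier results of these data known. Named beside the members were up to 4 called genes per list with the largest change and the nearest gene by shape, and others named were chosen after their values were seen.

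Replicate numbers are the mouse numbers of the titles, and arrays of 1 mouse are therefore paired. The deviations of the mice in the HL7G and unstimulated groups had r = -0.146 over genes. Alternatives covered the mouse as a block, filters, probe sets, variance trend, rescaling and leaving out arrays. An IgG condition was not analysed here.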

Additional observations from a re-analysis of the deposited data

How the results depend on the processing

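With HL7G against unstimulated, all 9 genes stayed above 0 in each setting, also with an array left out. The number called was 6, where 18.2% of all genes were called. Under the settings that kept all arrays it was between 5 and 8. The 8 came with the mouse as a replicate block, where 16.6% of all genes were called. The calls depended on which array was left out. The median of the 9 was 2.03 without the mouse 1 unstimulated array and 2.23 without that of mouse 2. Without the HL7G array of mouse 1 or mouse 2 it was 1.58 or 3.16. At a mean level of at least 6 Bst2, Mx1 and Ifitm3 were not tested. Quantile normalization over the genes tested gave 4 calls with R848, 1 with CpGB and 1 with Poly I/C, against 0 in each as reported. Of all genes it called 5.18% with R848, 1.08% with CpGB and 0.0989% with Poly I/C. Leaving out an array gave 0 to 9 calls with R848 and 0 to 4 with CpGB and with Poly I/C. The fit then has 1 residual degree of freedom. The replicate block turned Bst2 with CpGB to -0.24 and changed no other call than those of Cmpk2 and Bst2 with HL7G. A crossed pairing, added after seeing the data, gave 7 calls with HL7G, 4 with R848, 1 with CpGB and 0 with Poly I/C. Of all genes, 20.9%, 5.81%, 0.8% and 0.00899% were then called. In HL7G against the 3 agonists, Adar turned to -0.025 after cyclic loess and -0.17 after quantile normalization, and Helz2 to -0.069 and -0.18. With an array left out Adar ran from -0.34 to 0.71, Bst2 from -0.90 to 1.90, Mx1 from -0.53 to 1.66, Ifitm3 from -0.45 to 0.83, Cmpk2 from -0.43 to 1.94 and Helz2 from -0.51 to 0.82. Bst2 in R848 and CpGB against Poly I/C turned to -0.018 with median centring, -0.020 after cyclic loess and -0.080 after quantile normalization. None of the reversed values was called, and the causes were not tested. The median HL7G difference of all genes was 0.06, and -0.07 with median centring, -0.08 after cyclic loess and -0.12 after quantile normalization. With the filter set at an average of 6, it was 0.86 over the 1337 genes left, and 31.2% of them were called higher. The 6 members left had a median of 2.215.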
